A study of Mus musculus with 9 samples.

Results

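The genes described here encode proteins that sense DNA double-strand breaks, rejoin or copy across the broken ends, and undo crosslinks between the strands of the double helix. They were chosen by name as 42 gene symbols, and counts were summed by symbol in all 9 libraries. Of the 42 symbols, 41 were among the 38926 symbols of the count tables. Claspn was not listed under that spelling, and Clspn, the symbol used for the claspin gene, is given apart. All 41 genes passed the filter on low counts and are among the 12663 genes tested, with between 10 and 2981 counts in a library.

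The cells were murine leukaemia cells carrying MLL-AF9, a fusion of a histone methyltransferase with a partner protein, passaged by tertiary transplantation in mice. They were transduced with 1 of 2 short hairpin RNAs against Syncrip (shRNA-1 and shRNA-2) or with a control hairpin, which the sample labels call a scramble and the series' design text a luciferase hairpin. RNA was taken at day 4, in 3 libraries per group, each transduced and handled on its own. Whether each library came from its own mouse, or all of them from 1 leukaemia line, is not known here. The p-values measure the spread between these libraries, and the origin of that spread is not known either.

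A double-strand break is first found by the MRE11-RAD50-NBN complex, which recruits the kinase ATM, while single-stranded DNA at stalled forks and trimmed ends recruits ATR with ATRIP. The break is then closed either by direct end joining, with the Ku proteins and DNA-PK, or after the ends have been trimmed by homologous recombination, in which BRCA1, PALB2 and BRCA2 act in turn and an intact copy serves as template. Crosslinks are handled by the Fanconi pathway: a core complex adds ubiquitin to the pair FANCD2 and FANCI, which then directs cutting and repair. Blood-forming cells depend on this pathway, and its inherited loss causes bone marrow failure and leukaemia.

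The libraries held between 9559638 and 19483923 counts. Syncrip, the targeted gene, had a level of 227 ± 17.5 CPM (counts relative to the TMM-scaled library size, mean ± SD, n = 3) in the controls, 17.8 ± 2.13 under shRNA-1 and 56.7 ± 9.05 under shRNA-2. The share of counts under 3 ribosomal RNA symbols was 4.77% to 8.29% in the controls, 11.98% to 19.3% with shRNA-1 and 6.10% to 15.8% with shRNA-2. The defining T cell markers Cd3g, Cd8a and Trac, the B cell markers Cd79a and Blk, the erythroid markers Alas2 and Epor and the stromal markers Col3a1, Dcn and Lum had no counts in any library. Other genes of these lists had counts, Cd28, Lck and Cd3d for T cells, Cd79b for B cells and Acta2 and Pecam1 for stroma. The summed T cell list, mostly Cd28, was at 6.17 to 7.47 CPM in the controls, 5.49 to 6.37 under shRNA-1 and 22.1 to 32.9 under shRNA-2, where 2 of its 3 tested genes rose. The summed stromal list was at 25.6 to 40.4, 11.9 to 23.2 and 43.7 to 46.1 CPM, with 2 of 4 tested genes lower under shRNA-1, and 2 higher and 1 lower under shRNA-2. The summed B cell list was at 10.1 to 17.97 CPM over all libraries and the erythroid one at 1.32 or less, and their 1 tested gene each was not called. Genes of monocytes and macrophages were present: with shRNA-1 5 of 15 tested rose and 1 fell, and 13 of 15 rose under shRNA-2, beside 17.4% and 24.4% of all genes called higher. Their summed level was 519 to 751 CPM in the control libraries, 942 to 2167 under shRNA-1 and 1971 to 3825 under shRNA-2. Genes of mature neutrophils, a stage these myeloid cells can reach, rose in 12 of 15 and 11 of 15, and 2 fell with shRNA-2, from a summed 12437 to 12895 CPM in the controls to 29381 to 37732 and 35810 to 50664. In such bulk RNA, fewer cells of a kind and less RNA per cell cannot be told apart, and the part of these lists in the results was not tested.

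Most repair genes fell with shRNA-2, and fewer with shRNA-1. With shRNA-1, 17 of the 41 fell, 1 rose and 23 were not called, while 17.3% of all tested genes were called lower and 17.4% higher. With shRNA-2, 28 of 41 fell, beside 24.2% of all genes. No repair gene was called higher with shRNA-2 in edgeR's quasi-likelihood test, in DESeq2 or in limma-voom, nor at an unadjusted p under 0.05, beside 24.4% of all genes called higher. The median log2 fold change of the 41 was -0.37 under shRNA-1 and -0.61 under shRNA-2, and that of all genes was 0.02 and 0.00. Both comparisons use the same 3 control libraries, so their values are set side by side and not counted as separate evidence. Adding each library's ribosomal RNA share to the fit kept 4 of the 18 calls of shRNA-1, the falls of Rnf168, Mre11a, Rad50 and Fancm, and 22 of the 28 of shRNA-2. In that fit 1358 of all genes were called with shRNA-1, beside 4389 without it, and 5788 with shRNA-2, beside 6162. The shRNA-1 and control libraries did not overlap in this share, so the fit cannot fully tell the hairpin and the share apart. A call means an adjusted p under 0.05 over all 12663 genes in 1 edgeR fit of all libraries.

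The hairpins differed directly in 18 repair genes. In that test 17 of the 41 were higher with shRNA-1 than with shRNA-2, beside 19.7% of all genes, and 1, Rnf168, was lower, beside 21.3%. The summed level of the 41 genes was 1102, 1055 and 1110 CPM in the control libraries, 819, 777 and 735 under shRNA-1, and 804, 542 and 663 under shRNA-2. All 6 knockdown libraries lay below all 3 controls, and the shRNA-2 libraries spread the most.

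**Figure D1:**
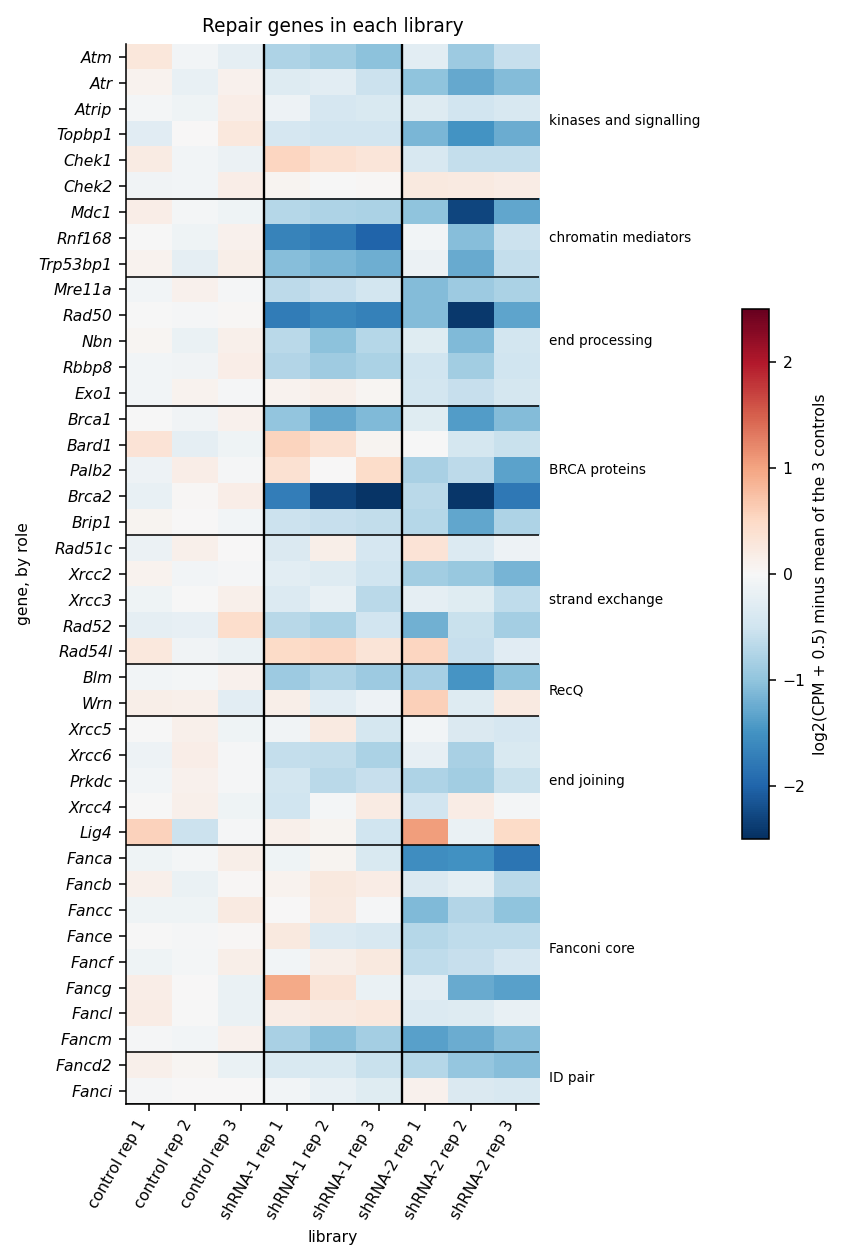
Level of each of the 41 repair genes (rows, by role) in each library (columns), as log2(CPM + 0.5) minus the mean of the 3 control libraries, with blue for lower and red for higher. Rad50, Brca2 and Rnf168 are the darkest rows with shRNA-1, and the Fanconi core rows are blue mainly in the 3 shRNA-2 columns.

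**Figure D2:**
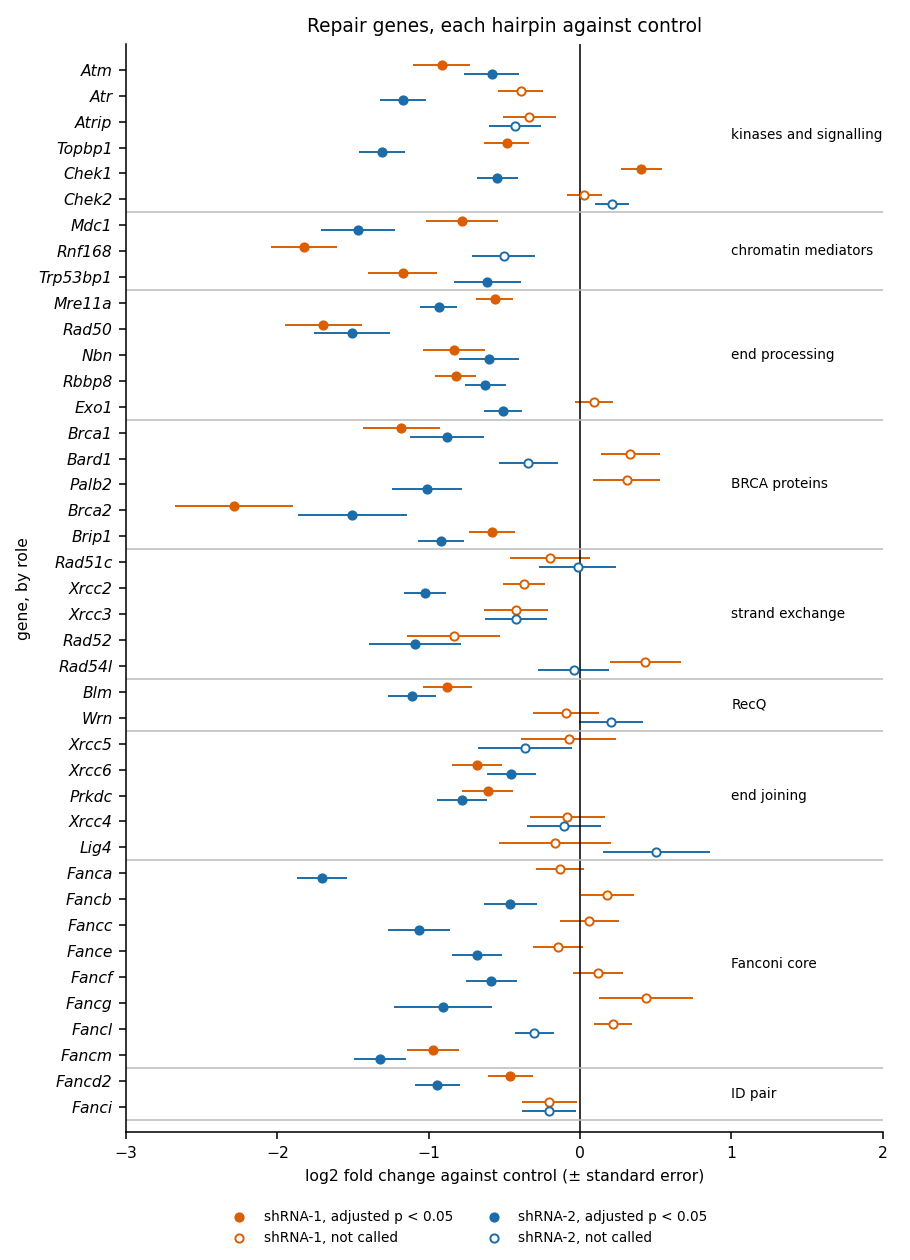
Log2 fold change against control with its standard error for the 41 repair genes with shRNA-1 (orange) and shRNA-2 (blue), with filled points for adjusted p under 0.05. Chek1 is the filled point to the right of 0, with shRNA-1, and 28 blue points are filled to its left.

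Among the damage kinases and their partners, Atr, Topbp1 and Chek1 fell with shRNA-2. Atr, the kinase that answers stalled forks (chr9:95857597-95951781), stood at 19.2, 15.7 and 19.3 CPM in the control libraries, 14.3, 14.8 and 12.3 under shRNA-1, and 8.71, 7.12 and 8.23 under shRNA-2. The 3 groups did not overlap, and shRNA-2 was the lowest. Atr was 2.25-fold lower with shRNA-2 (log2 fold change -1.17 ± 0.15, edgeR adjusted p = 8.00e-05). With shRNA-1 the value was -0.39 ± 0.15 (edgeR adjusted p = 0.0594).

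Topbp1, the scaffold that switches ATR on (chr9:103305215-103350428), followed the same order. It stood at 74.3, 90.4 and 109 CPM in the control libraries, 67.2, 64.3 and 64.4 under shRNA-1 and 40.6, 31.7 and 37.9 under shRNA-2, again without overlap between groups. It fell with shRNA-2 by 1.31 ± 0.15 on the log2 scale (edgeR adjusted p = 3.68e-05) and with shRNA-1 by 0.48 ± 0.15 (edgeR adjusted p = 0.0261). The shRNA-1 call on Topbp1 did not pass on leaving out any 1 shRNA-1 library, or control replicate 2 or 3 (adjusted p up to 0.132).

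Chek1, the kinase that ATR activates to hold the cell cycle (chr9:36708482-36727065), moved in opposite directions with the hairpins. Its level was 34.3, 28.4 and 26.8 CPM in the control libraries, 43.4, 38.6 and 36.8 under shRNA-1 and 22.4, 19.5 and 19.4 under shRNA-2. All shRNA-1 libraries lay above, and all shRNA-2 libraries below, every control. The change was 0.41 ± 0.13 under shRNA-1 (edgeR adjusted p = 0.0344) and -0.55 ± 0.13 under shRNA-2 (edgeR adjusted p = 0.00555), and the hairpins differed by 0.95 ± 0.14 (edgeR adjusted p = 0.000226). The rise of Chek1 under shRNA-1 did not pass on leaving out any 1 shRNA-1 library or control replicate 2 or 3 (adjusted p 0.0534 to 0.136), and the direct difference was not lost without any library.

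Of the other members of this role, Atm fell with both hairpins, and Atrip and Chek2 passed with neither. Atm, the kinase of double-strand breaks, went from 35.6 ± 6.86 CPM to 18.9 ± 1.74 under shRNA-1 and 23.7 ± 5.43 under shRNA-2, a fall of 0.92 ± 0.19 and 0.58 ± 0.18 on the log2 scale (edgeR adjusted p = 0.0034 and 0.0197). The shRNA-2 call on Atm was lost without shRNA-2 replicate 2 (adjusted p 0.0669), shRNA-2 replicate 3 (0.0566) or control replicate 1 (0.111). Atrip, the partner of ATR, had log2 fold changes of -0.33 and -0.43, and Chek2, the kinase below ATM, had 0.03 and 0.21, and none of these 4 values passed the test. Clspn, whose protein links ATR to CHK1, was at 87.2 ± 10.9 CPM in the control libraries, 46.7 ± 9.12 under shRNA-1 and 50.8 ± 28.4 under shRNA-2. Its fall passed with shRNA-1 (-0.90 ± 0.31, edgeR adjusted p = 0.0417), and the value with shRNA-2 was -0.78 ± 0.31 (edgeR adjusted p = 0.0549). The shRNA-1 call on Clspn was lost without any 1 library but shRNA-2 replicate 1 or 2 (adjusted p up to 0.135), and leaving out shRNA-2 replicate 1 let the shRNA-2 value pass (0.000346).

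The chromatin mediators carry the signal from the break into the surrounding nucleosomes: MDC1 binds the marked histone, RNF168 adds ubiquitin, and 53BP1 (Trp53bp1) reads it and protects the ends. All 3 fell with shRNA-1 and Mdc1 and Trp53bp1 under shRNA-2. Rnf168 (chr16:32277459-32301434) was the 1 gene of the 41 called lower with shRNA-1 than with shRNA-2. It stood at 73.3, 67.7 and 79.4 CPM in the control libraries, 22.8, 21.6 and 17.9 under shRNA-1, and 69.9, 34.6 and 50.6 under shRNA-2. The shRNA-1 libraries lay close together far below the controls, and shRNA-2 replicate 1 lay within the control range. Rnf168 was 3.54-fold lower with shRNA-1 (-1.82 ± 0.22, edgeR adjusted p = 0.000211), and the hairpins differed by -1.32 ± 0.22 (edgeR adjusted p = 0.000561). The shRNA-2 value was -0.50 ± 0.21 (edgeR adjusted p = 0.0611), and it passed without shRNA-2 replicate 1 (0.00255).

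Mdc1 went the other way between the hairpins, from 41.8, 36.3 and 34.7 CPM in the controls to 22.5, 21.7 and 21.5 under shRNA-1 and 18.3, 7.27 and 14.8 under shRNA-2. Every knockdown library lay below every control, and every shRNA-2 library below every shRNA-1 library. The fall was 0.78 ± 0.24 under shRNA-1 and 1.47 ± 0.25 under shRNA-2 on the log2 scale (edgeR adjusted p = 0.0264 and 0.000462). The shRNA-1 call was lost on leaving out any 1 shRNA-1 or control library (adjusted p 0.0556 to 0.0856), and the hairpin difference of 0.69 ± 0.25 (edgeR adjusted p = 0.0432) without any of these or shRNA-2 replicate 3 (0.0649 to 0.0942). Trp53bp1 fell by 1.17 ± 0.23 under shRNA-1 and by 0.61 ± 0.22 under shRNA-2 (edgeR adjusted p = 0.00275 and 0.0388). Its shRNA-2 call did not pass on leaving out shRNA-1 replicate 2, shRNA-2 replicate 2 or 3, or control replicate 1 or 3 (adjusted p 0.0544 to 0.137).

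Of the 5 end-processing genes, 4 fell with shRNA-1, beside 17.3% of all genes, and 5 fell with shRNA-2, beside 24.2%. The shRNA-1 count depended on the fit. In the fit that includes the ribosomal RNA share, 2 of the 5 were lower with shRNA-1 and 4 with shRNA-2. Correcting each library for its dependence on length gave 3 lower and 1 higher with shRNA-1, and 4 lower with shRNA-2. Rad50, the coiled-coil ATPase of the MRE11 complex (chr11:53649519-53707319), had 128, 127 and 132 CPM in the control libraries, 37.9, 41.5 and 39.8 under shRNA-1 and 60.9, 23.7 and 51.1 under shRNA-2. The knockdown libraries were all far below the controls, and shRNA-2 replicate 2 was the lowest of the 9. It was 3.24-fold lower with shRNA-1 (-1.70 ± 0.25, edgeR adjusted p = 0.000755) and 2.84-fold lower with shRNA-2 (-1.51 ± 0.25, edgeR adjusted p = 0.000466). The hairpins differed by -0.19 ± 0.25 (edgeR adjusted p = 0.586), a difference that passed without shRNA-2 replicate 2 (0.00609).

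The partners of Rad50 fell less. Mre11a, the nuclease of the complex, was at 48.1, 54.9 and 49.3 CPM in the control libraries, 32.2, 34.0 and 36.7 under shRNA-1 and 23.5, 26.9 and 29.3 under shRNA-2. No library of 1 group overlapped another group, and the falls were 0.56 ± 0.12 and 0.93 ± 0.12 on the log2 scale (edgeR adjusted p = 0.00504 and 9.90e-05). The hairpin difference of 0.37 ± 0.13 (edgeR adjusted p = 0.0336) was lost without shRNA-1 replicate 2 or 3, shRNA-2 replicate 1, or control replicate 2 or 3 (0.0514 to 0.114). Nbn, the subunit that calls ATM, fell by 0.83 ± 0.21 and 0.60 ± 0.20 (edgeR adjusted p = 0.00939 and 0.0266), the shRNA-2 call being lost without shRNA-2 replicate 2 or control replicate 1 or 3 (0.068 to 0.102). Rbbp8, which encodes CtIP, the cofactor that starts trimming, fell by 0.82 ± 0.14 and 0.63 ± 0.13 (edgeR adjusted p = 0.00117 and 0.00242).

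Exo1, the exonuclease that trims ends over long stretches, fell with shRNA-2. It had 15.1 ± 0.882 CPM in the control libraries, 16.1 ± 0.498 under shRNA-1 and 10.6 ± 0.567 under shRNA-2. The change was 0.09 ± 0.13 under shRNA-1 (edgeR adjusted p = 0.608) and -0.51 ± 0.13 under shRNA-2 (edgeR adjusted p = 0.00591), and the hairpins differed by 0.60 ± 0.13 (edgeR adjusted p = 0.00317).

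The BRCA proteins divided into those that fell with both hairpins and those that separated them. Brca2, a mediator of homologous recombination (chr5:150522630-150570329), had 16.6, 19.3 and 21.1 CPM in the control libraries, 5.38, 3.38 and 3.05 under shRNA-1 and 11.6, 3.09 and 5.13 under shRNA-2. It showed the lowest log2 fold change of the 41 genes with shRNA-1. Brca2 was 4.89-fold lower with shRNA-1 (-2.29 ± 0.39, edgeR adjusted p = 0.00133) and 2.84-fold lower with shRNA-2 (-1.51 ± 0.36, edgeR adjusted p = 0.00467), with a hairpin difference of -0.78 ± 0.40 (edgeR adjusted p = 0.144) that passed without shRNA-2 replicate 2 (0.0225). Brca1, the ubiquitin ligase that favours recombination, fell from 14.6 ± 0.968 CPM to 6.48 ± 0.692 and 7.90 ± 3.48 (-1.18 ± 0.26 and -0.88 ± 0.25, edgeR adjusted p = 0.00466 and 0.0111). Brip1, the helicase bound to BRCA1, fell by 0.58 ± 0.15 and 0.92 ± 0.15 (edgeR adjusted p = 0.0117 and 0.000412). In the fit that includes the ribosomal RNA share, Brca2, Brca1 and Brip1 did not pass for shRNA-1 (adjusted p 0.0634, 0.240 and 0.303).

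Palb2, which bridges BRCA1 to BRCA2 (chr7:122107262-122132985), behaved differently. It had 6.13, 7.62 and 6.59 CPM in the control libraries, 8.90, 6.84 and 9.50 under shRNA-1 and 3.62, 4.10 and 2.36 under shRNA-2. The shRNA-1 libraries overlapped the controls, and every shRNA-2 library was below all others. It fell 2.02-fold with shRNA-2 (-1.01 ± 0.23, edgeR adjusted p = 0.00347), its value with shRNA-1 was 0.31 ± 0.22 (edgeR adjusted p = 0.300), and the hairpins differed by 1.32 ± 0.23 (edgeR adjusted p = 0.000947). Bard1, the obligate partner of BRCA1, passed against control with neither hairpin (0.33 ± 0.20 and -0.34 ± 0.20). The hairpin difference for Bard1 was 0.67 ± 0.20 (edgeR adjusted p = 0.0172), and it was lost without shRNA-1 replicate 1 or 2 or shRNA-2 replicate 3 (0.0537 to 0.0752).

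**Figure D3:**
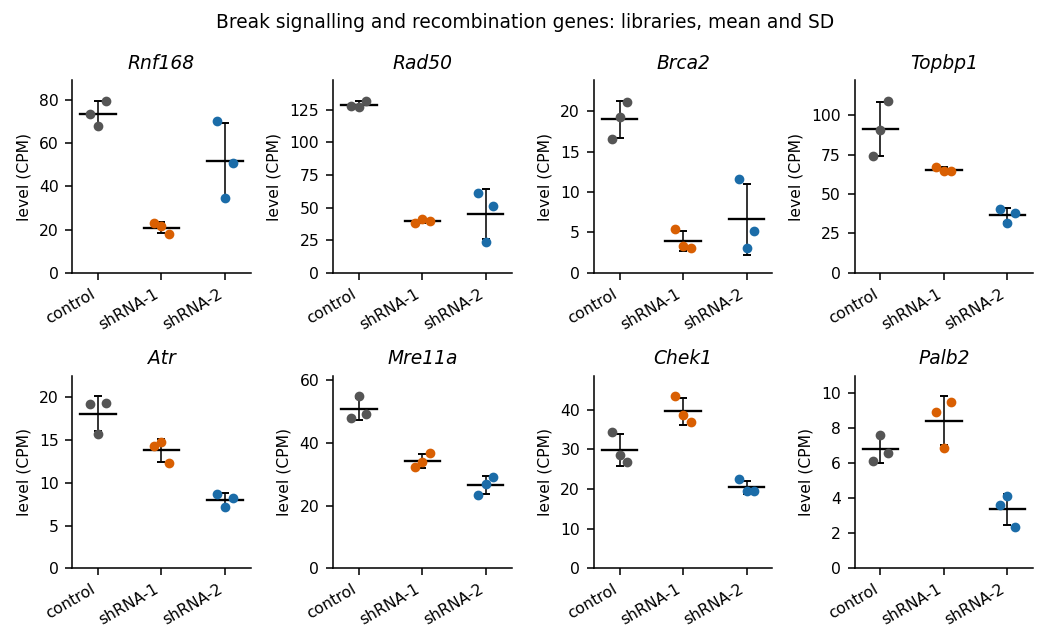
Level in CPM (counts relative to the scaled library size) of 8 genes of break signalling and recombination in each library, with points for libraries, a line for the mean and bars for the SD of 3 libraries per group. Rnf168 is lowest with shRNA-1, Rad50 and Brca2 are low with both hairpins, and Atr, Topbp1, Chek1 and Palb2 are lowest with shRNA-2.

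The strand-exchange genes were the role with no call against control with shRNA-1, in edgeR, DESeq2 or limma-voom. Of all genes, edgeR called 17.3% lower and 17.4% higher there. At an unadjusted p under 0.05, 2 of the 5 were lower with shRNA-1. With shRNA-2, 2 of 5 fell, beside 24.2% of all genes. Xrcc2, which acts in homologous recombination, had 18.5 ± 1.14 CPM in the control libraries, 14.3 ± 1.22 under shRNA-1 and 9.07 ± 0.992 under shRNA-2, and fell 2.04-fold with shRNA-2 (-1.03 ± 0.14, edgeR adjusted p = 0.000122). Rad52, which anneals single strands, was at 3.40 ± 1.11, 1.92 ± 0.267 and 1.62 ± 0.461 CPM. It fell by 1.09 ± 0.30 under shRNA-2 (edgeR adjusted p = 0.0111), a call lost without control replicate 3 (0.0662).

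Rad51c and Xrcc3, which act at the same stage, had log2 fold changes between -0.43 and -0.01 with either hairpin, none of which passed. Rad54l, a DNA motor protein of homologous recombination, had 68.1, 53.5 and 50.8 CPM in the control libraries, 79.7, 81.4 and 71.1 under shRNA-1 and 82.3, 38.2 and 46.8 under shRNA-2. The shRNA-2 libraries spanned the whole range, with replicate 1 the highest of all 9. Without that replicate Rad54l was called in all 3 comparisons (adjusted p 0.0242 under shRNA-1, 0.0401 under shRNA-2 and 0.000983 between hairpins), and with it in none. Of the RecQ helicases, which unwind recombination intermediates, Blm fell by 0.88 ± 0.16 and 1.11 ± 0.16 (edgeR adjusted p = 0.00193 and 0.000175), with levels of 30.1 ± 2.20, 16.4 ± 0.919 and 13.9 ± 3.13 CPM in the control, shRNA-1 and shRNA-2 groups. Wrn had values of -0.09 ± 0.22 and 0.21 ± 0.21, which did not pass.

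None of the 5 end-joining genes was called between the hairpins by edgeR, where none had an unadjusted p under 0.05 either. DESeq2 and limma-voom called 0 as well. Of all tested genes, 19.7% were called higher and 21.3% lower with shRNA-1 than with shRNA-2. Xrcc6, which encodes Ku70, the ring that caps broken ends, fell from 28.6 ± 3.09 CPM to 17.8 ± 1.45 under shRNA-1 and 20.8 ± 4.42 under shRNA-2 (-0.68 ± 0.17 and -0.45 ± 0.16, edgeR adjusted p = 0.00853 and 0.0356). Its shRNA-2 call did not pass on leaving out shRNA-1 replicate 2, shRNA-2 replicate 2 or 3, or any 1 control (0.0504 to 0.148). Xrcc5, which encodes the other Ku protein, was at 1.43 ± 0.155, 1.34 ± 0.422 and 1.10 ± 0.219 CPM and did not pass. Prkdc, the DNA-PK kinase, fell by 0.61 ± 0.17 and 0.78 ± 0.17 (edgeR adjusted p = 0.0162 and 0.00234), the shRNA-1 call being lost without shRNA-1 replicate 2 (0.0716) or control replicate 2 (0.0611). The ligase gene Lig4 and its partner Xrcc4 had log2 fold changes from -0.16 to 0.50 and standard errors from 0.24 to 0.37, and did not pass with either hairpin.

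The Fanconi core complex was the role in which most genes differed between the hairpins. With shRNA-2, 7 of its 8 genes fell, beside 24.2% of all genes, and the eighth, Fancl, had -0.30 ± 0.13 (edgeR adjusted p = 0.0721). With shRNA-1 only Fancm of the 8 fell, beside 17.3% of all genes. The direct test between hairpins called 7 of the 8 higher with shRNA-1, all but Fancm, beside 19.7% of all genes. The summed level of the 8 genes was 111, 105 and 111 CPM in the control libraries, 123, 110 and 98.8 under shRNA-1 and 64.3, 61.4 and 59.8 under shRNA-2, so the shRNA-1 libraries spanned the controls and the shRNA-2 libraries lay apart below both. The median log2 fold change of the 8 was -0.79 under shRNA-2. With shRNA-1 it was 0.09, and -0.16 with total counts in place of TMM scaling, which moved the median of all genes to -0.23.

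Fanca, which anchors the complex with FANCG (chr8:123268300-123318576), showed the largest fall of the 41 genes with shRNA-2. It had 18.8, 19.6 and 22.5 CPM in the control libraries, 18.7, 21.4 and 15.5 under shRNA-1 and 6.56, 6.81 and 5.33 under shRNA-2. The shRNA-1 libraries lay around the control range, and the shRNA-2 libraries lay far below it. Fanca was 3.26-fold lower with shRNA-2 (-1.70 ± 0.17, edgeR adjusted p = 1.14e-05), had -0.13 ± 0.16 under shRNA-1 (edgeR adjusted p = 0.543), and differed between hairpins by 1.57 ± 0.17 (edgeR adjusted p = 3.17e-05). Its exons overlap those of Zfp276 on the opposite strand, and the sources used here do not give the strand setting of the counting. An exon overlap with another annotated gene, on either strand, concerns 19 of the 41 genes. With the strand setting not given, the part of the neighbour in their counts is not known.

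Fancg, the partner of FANCA (chr4:43002343-43010506), had 15.9, 14.3 and 12.6 CPM in the control libraries, 27.8, 17.7 and 12.6 under shRNA-1 and 11.8, 5.65 and 5.19 under shRNA-2. Of the 8 genes it had the largest SD in the knockdown groups, yet every shRNA-2 library lay below every other library. It fell with shRNA-2 by 0.91 ± 0.32 (edgeR adjusted p = 0.0355) and differed between hairpins by 1.34 ± 0.33 (edgeR adjusted p = 0.00653). The fall was lost without shRNA-2 replicate 2 or 3 or any 1 control (0.0574 to 0.131), and the hairpin difference was not lost without any library.

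Fancc and Fance, which form an arm of the complex that contacts FANCD2, also separated the groups. Fancc (chr13:63285043-63497278) had 5.83, 5.83 and 7.56 CPM in the control libraries, 6.37, 7.53 and 6.18 under shRNA-1 and 2.70, 3.63 and 2.90 under shRNA-2, a 2.09-fold fall with shRNA-2 (-1.07 ± 0.21, edgeR adjusted p = 0.00124). Fance had 21.2, 21.0 and 21.9 CPM in the control libraries, 25.4, 16.8 and 16.1 under shRNA-1 and 12.8, 13.6 and 13.6 under shRNA-2, and fell by 0.68 ± 0.17 on the log2 scale (edgeR adjusted p = 0.00507). For both genes the shRNA-2 libraries lay below all others. The hairpin difference was 1.13 ± 0.21 for Fancc and 0.54 ± 0.17 for Fance (edgeR adjusted p = 0.00134 and 0.0235), the latter lost without shRNA-1 replicate 1 or shRNA-2 replicate 1 or 3 (0.0502 to 0.112).

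Fancf, the adaptor of the complex, fell by 0.59 ± 0.17 under shRNA-2 (edgeR adjusted p = 0.0127), from 8.46 ± 0.847 to 5.64 ± 0.449 CPM, a call lost without control replicate 3 (0.0595). Fancb, which holds the ligase module together, fell by 0.46 ± 0.18 (edgeR adjusted p = 0.0468), from 7.95 ± 0.855 to 5.79 ± 0.912 CPM. The Fancb call was lost without any 1 library but shRNA-2 replicate 2 (0.0514 to 0.171). With shRNA-1 the levels of Fancf and Fancb were 9.18 ± 1.08 and 9.01 ± 0.506 CPM, and the hairpins differed by 0.71 ± 0.17 and 0.64 ± 0.18 (edgeR adjusted p = 0.00645 and 0.0134). The Fancb difference was lost without shRNA-1 replicate 2 (0.0522) or shRNA-2 replicate 3 (0.0608). Fancl, the ubiquitin ligase itself, had 19.95 ± 2.46 CPM in the control libraries, 23.2 ± 0.651 under shRNA-1 and 16.2 ± 1.00 under shRNA-2, and the hairpins differed by 0.52 ± 0.13 (edgeR adjusted p = 0.00773).

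Fancm, the translocase that brings the complex to the fork, was the exception among the 8. It had 9.78, 9.55 and 10.9 CPM in the control libraries, 5.49, 4.61 and 5.35 under shRNA-1 and 3.62, 3.94 and 4.52 under shRNA-2, so all 6 knockdown libraries were below the controls. The falls were 0.97 ± 0.17 and 1.32 ± 0.17 on the log2 scale (edgeR adjusted p = 0.00167 and 9.01e-05), and the hairpins differed by 0.35 ± 0.18 (edgeR adjusted p = 0.151).

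**Figure D4:**
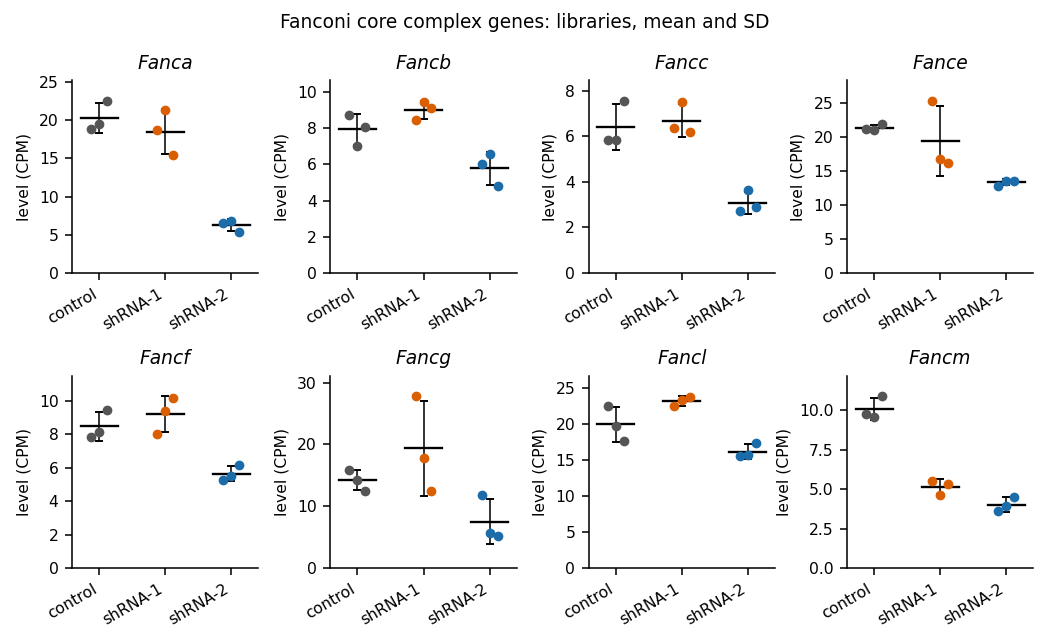
Level in CPM of the 8 Fanconi core genes in each library, with points for libraries, a line for the mean and bars for the SD of 3 libraries per group. The shRNA-2 points lie below all control points for all 8 genes, and the shRNA-1 points do so for Fancm.

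Downstream of the core, Fancd2 of the ubiquitylated pair was called lower with both hairpins and Fanci with neither, with no test between the 2 genes. Fancd2 had 21.1, 19.9 and 17.1 CPM in the control libraries, 14.6, 14.7 and 12.9 under shRNA-1 and 11.6, 9.59 and 8.97 under shRNA-2, with no overlap between groups. It fell by 0.46 ± 0.15 under shRNA-1 and 0.94 ± 0.15 under shRNA-2 (edgeR adjusted p = 0.0317 and 0.000325). The shRNA-1 call was lost without any 1 shRNA-1 library or without control replicate 1 or 2 (0.0578 to 0.109), and the hairpin difference of 0.48 ± 0.15 (edgeR adjusted p = 0.025) without shRNA-1 replicate 1 or 2 or shRNA-2 replicate 2 or 3 (0.0557 to 0.0959). Fanci had log2 fold changes of -0.20 ± 0.18 with each hairpin, and neither passed, though every shRNA-1 library lay below every control.

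Since the Fanconi core genes moved together with shRNA-2, the DNA before their start sites is shown for the motifs of growth-linked promoters. RefSeq sequences (build GRCm38.p6) were found for 33 of the 41 genes, and the 240 bases from 250 to 11 before the start were read in the direction of the gene. The RefSeq start lies 65533 bases inside the annotated span of Fancc and 28534 inside that of Xrcc6, so another start of these genes was not read, and within 205 bases of the annotated end for the other genes printed. The box CCAAT, bound by the factor NF-Y, was searched on both strands and stood in 6 of the 8 Fanconi core promoters and 16 of the 33 repair promoters (48.5%), beside 33.7% of 27018 promoters of the same length. E2F words (TTTCCCGC, TTTGGCGC, TTTCGCGC or TTTGCCGC on either strand), the letters recognised by cell cycle factors of the E2F family, stood in 6 of 33 (18.2%), beside 1.80% of all promoters. The word TTTGAA, the core of the cell cycle element called CHR, stood in 1 of 33, in Bard1, beside 15.8% of all. The 27018 promoters were not limited to the genes tested here and were not matched for base composition. Bases nearer the start than this window, or beyond the start, were not searched. No base was shared by matches of different motifs in these 33 promoters, and a match describes the letters and is not a measured site. Rad50, Nbn, Rbbp8, Exo1, Xrcc2, Wrn, Prkdc and Fancd2 have no entry in the sequences used.

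The longest stretch shown is that of Fanca, the gene with the largest fall with shRNA-2, at chr8:123318587-123318826 on the minus strand, with its 2 CCAAT boxes in capitals.
Fanca: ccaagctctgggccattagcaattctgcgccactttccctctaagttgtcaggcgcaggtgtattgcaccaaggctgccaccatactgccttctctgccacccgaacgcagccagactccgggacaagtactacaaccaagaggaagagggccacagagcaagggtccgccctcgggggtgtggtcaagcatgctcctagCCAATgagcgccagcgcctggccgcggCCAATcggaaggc
The nearer box ends 19 bases before the start and the other 46. The other Fanconi core promoters with the box are shown as 30 bases around the match nearest the start, with the box in capitals (ATTGG where it lies on the opposite strand).
Fancb, chrX:164980379-164980408, plus strand: cctccacactgtCCAATcccatagtgttgt
Fancc, chr13:63431966-63431995, minus strand: gactagggATTGGagcgatcactaaccaca
Fance, chr17:28313316-28313345, plus strand: agcgcggatcagATTGGctccagacgcagg
Fancf, chr7:51862281-51862310, minus strand: tcacgctcatgtCCAATcggctcgcgcctc
Fancm, chr12:65075528-65075557, plus strand: ccggaatggcaaCCAATcatcttcccgccg
The box shown began 23 bases before the start in Fanca, 31 in Fancf and 63 in Fancm, and 201, 202 and 242 bases before it in Fancb, Fance and Fancc. Fancg, which also fell with shRNA-2, and Fancl, which did not pass, hold no such box in this window. The part of the box in these falls was not tested.

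The 6 promoters with an E2F word are shown in the same way, since this word was the one whose share among repair genes stood farthest from that of all promoters; the word is in capitals, reversed where it lies on the opposite strand.
Bard1, chr1:71103163-71103192, minus strand: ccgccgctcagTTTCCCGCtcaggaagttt
Brca2, chr5:150522442-150522471, plus strand: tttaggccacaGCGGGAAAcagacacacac
Chek2, chr5:110839820-110839849, plus strand: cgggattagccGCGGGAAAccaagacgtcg
Fancg, chr4:43010335-43010364, minus strand: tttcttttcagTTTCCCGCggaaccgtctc
Topbp1, chr9:103305187-103305216, plus strand: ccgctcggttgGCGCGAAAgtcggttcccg
Xrcc6, chr15:82016312-82016341, plus strand: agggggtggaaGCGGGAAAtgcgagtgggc
Of these 6 genes, Topbp1, Brca2 and Xrcc6 fell with both hairpins, Fancg with shRNA-2, and Bard1 and Chek2 with neither. The calls of Topbp1 with shRNA-1 and of Xrcc6 and Fancg with shRNA-2 depended on single libraries, as given above. The part of the word in these changes was not tested.

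Genes of DNA synthesis and cell division, whose expression follows the cell cycle as that of many repair genes does, also differed between the hairpins. Of 26 S phase genes, 5 fell with shRNA-1 (19.2%, near the 17.3% of all genes) and 14 under shRNA-2 (53.8%, beside 24.2%). In turn 3 and 1 rose (11.5% and 3.85%, beside 17.4% and 24.4%). Between hairpins, 14 were higher with shRNA-1 than with shRNA-2 (53.8%, beside 19.7%). Their median log2 fold change was 0.01 under shRNA-1, where that of the repair genes was -0.37, and -0.47 under shRNA-2. Their summed level was 3349 to 3703 CPM in the control libraries, 3115 to 3329 under shRNA-1 and 2248 to 2542 under shRNA-2. Of 20 genes of mitosis, 7 fell (35%, beside 17.3% of all genes) and 2 rose (10%, beside 17.4%) with shRNA-1. With shRNA-2, 18 fell (90%, beside 24.2%). In the direct test 11 of the 20 were higher with shRNA-1 than with shRNA-2 (55%, beside 19.7%) and 0 lower (beside 21.3%). Cdkn1a, the p53 target that stops the cycle, rose by 1.01 ± 0.20 and 1.94 ± 0.21 on the log2 scale (edgeR adjusted p = 0.0033 and 2.37e-05), the former lost in the fit that includes the ribosomal RNA share (0.135). Of 19 p53 targets, 13 rose with each hairpin (68.4%, beside 17.4% and 24.4% of all genes), and 1 fell with shRNA-1 (5.26%, beside 17.3%). The part of these lists in the falls of the repair genes was not tested.

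Among 77 further repair genes tested, from a list drawn up by role, 19 fell (24.7%, beside 17.3% of all genes) and 12 rose (15.6%, beside 17.4%) with shRNA-1. With shRNA-2, 28 fell (36.4%, beside 24.2%) and 6 rose (7.79%, beside 24.4%). Their median log2 fold change was -0.11 and -0.31. Between hairpins, 23 of the 77 were higher with shRNA-1 than with shRNA-2 (29.9%, beside 19.7%) and 6 lower (7.79%, beside 21.3%). The 41 genes had the lower median with each hairpin, a description with no test between the lists. The lists also differed in transcript length, given below. Rpa3, the smallest subunit of the single-strand binding protein RPA, rose with shRNA-1 from 15.5 ± 2.02 to 48.3 ± 5.06 CPM (1.64 ± 0.16, edgeR adjusted p = 6.14e-05), and its level under shRNA-2 was 12.8 ± 2.18. Tipin, which protects stalled forks, fell with shRNA-2 from 236 ± 21.4 to 107 ± 15.0 CPM (-1.14 ± 0.13, edgeR adjusted p = 3.68e-05), with 209 ± 10.4 for shRNA-1.

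In the lists of break signalling and lesion bypass, the leading genes fell. Paxip1, a partner of 53BP1, fell with shRNA-2 to 10.4 ± 2.03 from 33.7 ± 5.52 CPM (-1.70 ± 0.17, edgeR adjusted p = 1.30e-05). Rif1, which 53BP1 uses to block end trimming, fell with shRNA-1 from 121 ± 10.3 to 51.9 ± 1.48 CPM (-1.23 ± 0.21, edgeR adjusted p = 0.00134). Wdr48, the cofactor of the enzyme that takes ubiquitin off FANCD2, fell with shRNA-1 (-0.78 ± 0.14, edgeR adjusted p = 0.00153), and Rad18, a ubiquitin ligase of lesion bypass, fell with shRNA-2 (-0.82 ± 0.14, edgeR adjusted p = 0.000582). The shRNA-1 falls of Rif1 and Wdr48 were lost on adding the ribosomal RNA share as covariate (adjusted p 0.0904 and 0.0788).

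In the recombination and nuclease lists, the leading genes moved both ways. Shfm1, the small protein bound to BRCA2, rose with shRNA-1 from 470 ± 84.0 to 1043 ± 58.0 CPM (1.15 ± 0.17, edgeR adjusted p = 0.000604). Rmi2, a small subunit of the BLM complex, rose with shRNA-1 (1.39 ± 0.24, edgeR adjusted p = 0.00139). Tonsl, which aids repair at forks, and Eme1, the partner of the nuclease MUS81, fell with shRNA-2 (-1.07 ± 0.17 and -1.27 ± 0.20, edgeR adjusted p = 0.000374 and 0.000331). Aptx, which cleans blocked DNA ends, rose with each hairpin (0.86 ± 0.17 and 0.82 ± 0.17, edgeR adjusted p = 0.00292 and 0.00195).

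Transcript length moved with the changes. The longest coding transcripts of the 41 genes had a median of 4460 nt, beside 3282 nt for the 77 further repair genes and 2796.5 nt for all genes with a length. Across the 41 genes, length and log2 fold change had a Spearman rho of -0.45 under shRNA-1 and -0.35 under shRNA-2, beside -0.32 and -0.14 across 12560 genes, a description across genes that share the same libraries. Of all genes over 7 kb (7000 nt), 42.8% fell with shRNA-1 and 37.3% with shRNA-2, and 6 of 8 and 8 of 8 repair genes of that length did. Of genes up to 2 kb, 6.60% and 16.3% fell, and 0 of 3 and 2 of 3 repair genes.

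**Figure D5:**
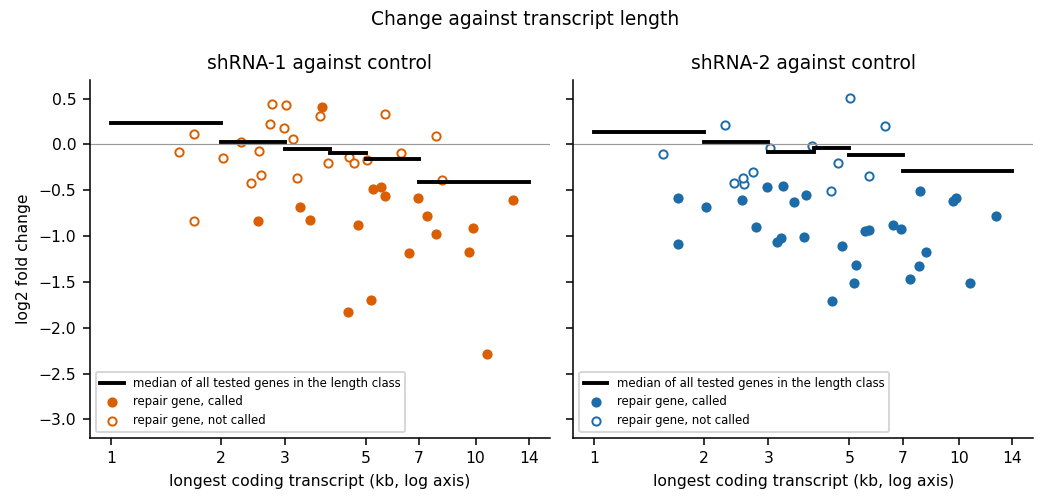
Log2 fold change against control of the 41 repair genes over the length of their longest coding transcript (kb, log axis), with filled points for adjusted p under 0.05 and black bars for the median of all tested genes in each length class. Filled points gather at long transcripts with shRNA-1 and are spread over all lengths with shRNA-2.

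With the length trend of each library taken out, 12 repair genes fell and 3 rose with shRNA-1, and 25 fell with shRNA-2. The Fanconi core counts were the same as before, 1 and 7 of 8 lower, and 7 of 8 differed between hairpins. The share of ribosomal RNA, highest with shRNA-1, also moved with the groups. In the fit that includes it, the adjusted p of the 4 calls kept for shRNA-1 was 0.00443 for Rnf168, 0.024 for Mre11a, 0.0394 for Rad50 and 0.036 for Fancm, and Rad54l was then the 1 gene called higher. With shRNA-2, 22 of 28 were kept, 5 of 7 in the Fanconi core, where Fancb (0.0774) and Fancg (0.0897) were lost. Between hairpins 17 of 18 were kept. The part of RNA quality in these falls was not tested.

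Within the knockdown groups the libraries did not carry equal weight. In shRNA-2, replicate 1 was the highest of the 3 for 27 of the 41 genes (38.8% of all genes) and replicate 2 the lowest for 21 (34.2%), and replicate 2 had the highest and replicate 1 the lowest ribosomal RNA share of that group. In shRNA-1, replicate 3, with the highest share of its group, was the lowest for 23 of the 41 (34.4% of all genes). With shRNA-1 replicate 3 and shRNA-2 replicate 2 both left out, 15 fell and 1 rose with shRNA-1 and 23 fell with shRNA-2. In the Fanconi core this left 1 and 6 of 8 lower against control, and 6 of 8 higher with shRNA-1 than with shRNA-2.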

How the data were processed

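The authors deposited 1 table of raw read counts per gene symbol for each library. Per the submitters' processing notes, STAR 2.3.0e, HTSeq 0.6.0 and mm10 were used. Per the labels' protocols, cDNA was primed with oligo-dT and its other strand with random decamers. The sources used here give neither the strand setting nor the annotation release.

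The 39179 entries per table were summed to 38926 symbols, which held repeated symbols with 0.275% of the counts. Genes were kept with filterByExpr, scaled with TMM, and tested with edgeR 4.0.16 (quasi-likelihood, R 4.3.3) in 1 fit of 9 libraries by group, with Benjamini-Hochberg adjustment over 12663 genes. Levels are CPM of the scaled library size. Lengths and positions came from GENCODE M21 on GRCm38, the assembly of mm10. Ribosomal RNA counts are those of Gm26924, mt-Rnr1 and mt-Rnr2, and Gm26924 is read so from general knowledge only. The pipeline was also run on simulated counts, which held no trend with length or ribosomal RNA share and so do not bear on those limits. Every gene of the module is described, and from each list of further repair genes the called gene with the lowest adjusted p against control with each hairpin. The genes and lists were chosen with earlier results of these data known. Alternatives included DESeq2 1.42.0, limma-voom (limma 3.58.1), other scalings and filters, covariates, and leaving out each library.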

Additional observations from a re-analysis of the deposited data

Results flagged for a closer look

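In 9 repair genes the fitted changes against control had opposite signs with the hairpins, and the test between hairpins passed. The difference, shRNA-1 minus shRNA-2 on the log2 scale, was 0.95 for Chek1, 0.60 for Exo1, 0.67 for Bard1 and 1.32 for Palb2. Among Fanconi core genes it was 0.64 for Fancb, 1.13 for Fancc, 0.71 for Fancf, 1.34 for Fancg and 0.52 for Fancl. In all 9 the value was above 0 with shRNA-1 and below 0 with shRNA-2. Of the values with shRNA-1 only that of Chek1 passed its own test. Those of Fancc (0.06 ± 0.20), Exo1 (0.09 ± 0.13) and Fancf (0.12 ± 0.17) lay within their standard error of 0. Bard1 and Fancl also did not pass with shRNA-2 (edgeR adjusted p = 0.169 and 0.0721). With total counts in place of TMM scaling, 1 of the 8 Fanconi core values with shRNA-1 lay above 0, beside 5 with TMM.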

How the results depend on the processing

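No call of the 41 genes or of the 77 further repair genes reversed under any of the alternatives. Without TMM, which moved the all-gene median to -0.23 for shRNA-1 and to -0.21 for shRNA-2 and the share of higher calls from 50.1% and 50.2% to 23.8% and 33.6%, the 41 genes had medians of -0.62 and -0.81, 0 rose with shRNA-1, and 4 further repair genes did. The count of the 41 called higher with shRNA-1 was 0 with no filter, at adjusted p under 0.01, at 2-fold and with the GC trend taken out, 2 with only the 2 groups compared, and 3 with the length trend taken out, where the shRNA-1 median was -0.21. At adjusted p under 0.01, 11 of the 41 were higher with shRNA-1 than with shRNA-2, and of the further genes 6 rose and 10 fell with shRNA-1, and 13 were higher and 1 lower between hairpins. At a 2-fold change, 5 of the 41 fell with shRNA-1, 12 with shRNA-2 and 4 were higher between hairpins, and of the further genes 3 rose and 4 fell with shRNA-1, 1 rose and 8 fell with shRNA-2, and 4 were higher and 1 lower between hairpins. With a covariate for the ribosomal RNA share, 1358 of all genes were called with shRNA-1, beside 4389 without it. In that fit 4 of the 41 fell with shRNA-1, with a median of -0.15. Of the further genes 7 rose and 1 fell with shRNA-1, and 2 were lower between hairpins. Lower between hairpins were 4 of the 41 with no filter and 3 without shRNA-1 replicate 3 and shRNA-2 replicate 2, an alternative chosen after seeing the data. The cause of these moves was not tested.

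Leaving out 1 library at a time, the 41 genes gave 0 to 2 higher and 13 to 20 lower with shRNA-1, 0 higher and 21 to 30 lower with shRNA-2, and 12 to 17 higher and 1 to 5 lower between hairpins, with medians of -0.45 to -0.30, -0.75 to -0.56 and 0.22 to 0.34. The further genes gave 5 to 17 higher and 11 to 24 lower, 5 to 7 and 24 to 31, and 17 to 25 and 3 to 7. The count of 5 lower between hairpins came without shRNA-2 replicate 2.

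The labels tie no replicate number to a shared source, and not every same-numbered pair of libraries deviated together, so the numbers were not taken as pairs: the correlations of deviations ran from -0.13 to 0.34 over 9 pairs, and 6 of 9 libraries correlated best with their own number, a hint of pairing from the data and not from the design. With the replicate number as a block, 2 of the 41 were higher with shRNA-1 and 2 lower between hairpins, and the block added 3, 2 and 2 calls of the 41 in the 3 comparisons and removed 0, 1 and 0. Counts as low as 10 in a library limit the precision for the least expressed genes.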
